A study of Saccharomyces cerevisiae with 1245 samples.

Results

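TFIIIB and TFIIIC are the 2 DNA-bound factors that bring RNA polymerase III to its genes, and their peaks were compared here along tRNA genes and across the rest of the budding yeast genome. The members are the ChIP-exo peak lists without heat shock whose title names a TFIIIB subunit (Bdp1, Brf1) or a TFIIIC subunit (TFC1, Tfc4, Tfc7, Tfc3, TFC6, Tfc8). The rule found 16 samples of 1245 in the series: 4 of TFIIIB and 12 of TFIIIC, with 2 libraries for each of 8 targets. ChIP-exo trims immunoprecipitated DNA with an exonuclease up to the crosslinked protein, and each deposited peak is a single base. All 16 libraries came from cells with a TAP tag on the target, grown in YPD at 25 °C and crosslinked with 1.0% formaldehyde, and none was heat shocked. The labels do not say whether the libraries of a target came from separate cultures, so the spread between them may be technical.

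TFIIIC reads the promoter inside a tRNA gene. Its tau A lobe (TFC1, Tfc4, Tfc7) lies over the A box near the start of the gene, and its tau B lobe (Tfc3, TFC6, Tfc8) lies over the B box nearer the end. TFIIIC then places TFIIIB (Brf1, Bdp1 and the TATA-binding protein) upstream of the start, with Tfc4 as the subunit that assembles it, and TFIIIB recruits the polymerase. A ChIP-exo peak marks where crosslinks stop the exonuclease, and a tagged subunit can crosslink through its partners, so a peak position is not the footprint of 1 protein.

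The lists held 292 to 372 peaks in TFIIIB libraries and 63 to 401 in TFIIIC libraries, and read depth is unknown. Tfc4 stood apart with 63 and 192 peaks, against at least 285 in every other TFIIIC library. In 7 of 8 targets, all but Tfc4, the first library had more peaks, more peaks away from tRNA genes and more genes with several peaks than the second. All 275 annotated nuclear tRNA genes had a TFIIIB peak and a TFIIIC peak within 250 bp in at least 1 library. TFIIIB covered 98.5% ± 0.257 of them (SD, n = 2 targets) and TFIIIC 88.8% ± 24.3 (SD, n = 6 targets), where Tfc4 alone covered 39.3%. The share of a library's peaks at tRNA genes was 88.7% ± 0.269 for TFIIIB and 86.5% ± 3.62 for TFIIIC (exact permutation test over targets, two-sided, p = 0.429). The share of genes covered gave p = 0.786 in the same exact permutation test. The second libraries of TFC6 and Tfc8 shared the exact position of 266 peaks out of 294 in each list. Of the 132 shared peaks whose score was under 1000 in either list, 0 had the same score in both. By comparison, the 2 libraries of Tfc8 shared 2 exact positions, the 2 of TFC6 shared 4 and the 2 of Bdp1 shared 0. Some pairs between the complexes shared many: 107 for the second Bdp1 and first Tfc3 libraries, 101 for the first Brf1 and first TFC1 libraries. Over all 48 such pairs, the larger of the shares of the 2 lists had a median of 0% and reached 36.6%. Whether the second libraries of TFC6 and Tfc8 share material was not tested. Position, spread, coverage and counts of places were also computed without each library in turn.

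Most TFIIIB peaks sat at one distance just inside the annotated 5′ end of tRNA genes, with the same median in long and short genes, while most TFIIIC subunits lay further into the gene. The library median was 9 and 13 bp downstream of the 5′ end for Bdp1, and 9 and 10 bp for Brf1. For the tau A subunits it was 30 and 15 bp for TFC1, 11 and 14 bp for Tfc4, and 16 bp in both libraries of Tfc7. For the tau B subunits it was 28 and 33 bp for Tfc3, 54 and 52 bp for TFC6, and 37 and 52 bp for Tfc8. The 4 TFIIIB libraries overlap with Tfc4 in this order and lie below the other TFIIIC libraries. The mean over targets was 10.25 ± 1.06 bp for TFIIIB (SD, n = 2) and 29.8 ± 16.1 bp for TFIIIC (SD, n = 6), a difference of -19.6 bp. An exact permutation test over targets, two-sided, gave p = 0.107, where 0.0357 is the smallest p that 2 targets against 6 can give. Both TFIIIB targets nevertheless had lower means than each of the 6 TFIIIC targets.

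**Figure D1:**
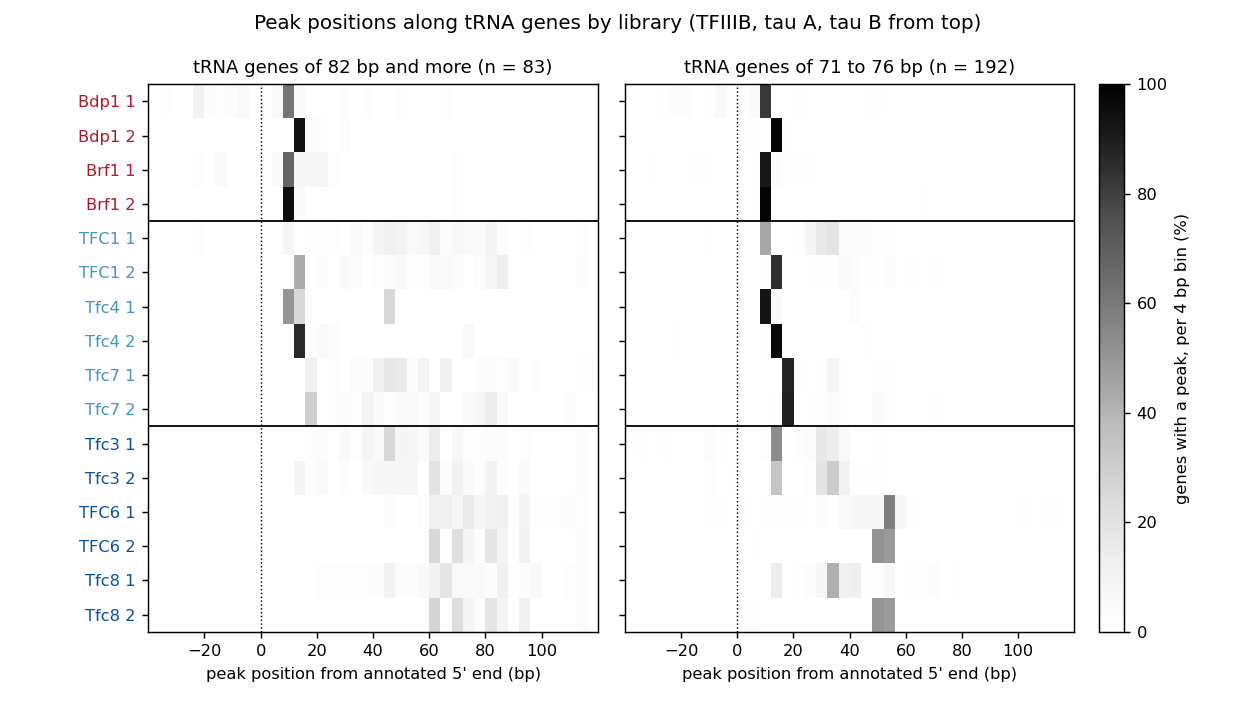
Share of tRNA genes (of those with a peak) whose median peak position falls in each 4 bp bin, by distance from the annotated 5′ end in bp (dotted line at 0), for the 16 libraries from TFIIIB at the top to tau A and tau B, with 83 genes of 82 bp and more on the left and 192 genes of 71 to 76 bp on the right. Each TFIIIB library keeps 1 dark bin, the same in both panels, and that of the second Bdp1 library (13 bp) lies next to that of the others. TFC6 and Tfc8 lie further in and spread out in the longer genes.

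Within a library, TFIIIB positions mostly fell on 1 base. In its second library Bdp1 had 261 of 270 peaks at exactly 13 bp, and Brf1 had 262 of 271 at exactly 10 bp. The first libraries were looser, with 41.3% of Bdp1 peaks at exactly 10 bp and 73.1% of Brf1 peaks at exactly 9 bp. The same offset came out for genes on both strands. The interquartile range of positions averaged 0.25 ± 0.354 bp for TFIIIB (SD, n = 2 targets) and 17.25 ± 9.87 bp for TFIIIC (SD, n = 6 targets), and the exact permutation test over targets, two-sided, gave p = 0.143. Tfc4 had a range of 0 bp, within the TFIIIB values. Without it the targets of the 2 complexes separated fully, with a difference of -20.4 bp. The exact permutation p was then 0.0476, the smallest that the remaining targets can give. Tfc4 was the only TFIIIC target within the TFIIIB values, so full separation followed from leaving it out. This p therefore adds no support to the test with all targets.

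Peaks of the tau B subunit TFC6, and those of Tfc8 in 1 of its 2 libraries, instead kept a distance from the other end of the gene. In the second library of TFC6, 269 of 272 peaks lay exactly 20 bp before the annotated 3′ end, and in that of Tfc8 266 of 269 did. These are the 2 lists that shared most of their exact positions, so they may not be separate observations. The first TFC6 library had 46.8% of its peaks at exactly 18 bp before that end. The first Tfc8 library did not keep that distance: 14.5% of its peaks lay at 18 bp, and its median was 37 bp from the 5′ end. The tau A targets averaged 17.0 ± 5.07 bp from the 5′ end and the tau B targets 42.7 ± 11.4 bp (SD, n = 3 each), a difference of -25.7 bp. The exact permutation p was 0.1, two-sided, which is the smallest that 3 targets against 3 can give, and the target means of the 2 lobes did not overlap. By library they did, since the first TFC1 library (30 bp) lay beyond the first Tfc3 library (28 bp).

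Gene length separated the complexes further. The tRNA genes fall into 83 of 82 bp and more and 192 of 71 to 76 bp, with none between, and the longer ones include those with an intron. The TFIIIB median was the same in long and in short genes in all 4 libraries, a shift of 0 bp in each. Single long genes departed from that median: at SUP53 (YNCC0002W, 114 bp) TFIIIB lay at 66, 69 and 68 bp in the 3 libraries with a peak. In long genes 29.3% of peaks of the first Bdp1 library and 19.0% of the first Brf1 library lay outside 5 to 20 bp from the 5′ end, against 15.6% and 5.0% in short genes. In the second libraries at most 2.38% did in either class. Tfc4 shifted by 0.5 and 0 bp, although its first library had a peak at only 4 long genes. The other TFIIIC targets moved with length: the shift was 26 and 17.5 bp for TFC1, 33.5 and 31 bp for Tfc7, 35.5 and 31 bp for Tfc3, 22 and 24 bp for TFC6, and 30 and 24 bp for Tfc8. Every library of these 5 targets shifted further than every TFIIIB library. Over targets the shift was 0 ± 0 bp for TFIIIB (n = 2) and 22.9 ± 12.05 bp for TFIIIC (SD, n = 6). The exact permutation test, two-sided, gave p = 0.0357, the smallest these numbers allow, in a comparison and with a length split that were both chosen after seeing the data. With the second libraries alone the shift was -21.25 bp between the complexes and no longer passed (exact permutation p = 0.107).

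**Figure D2:**
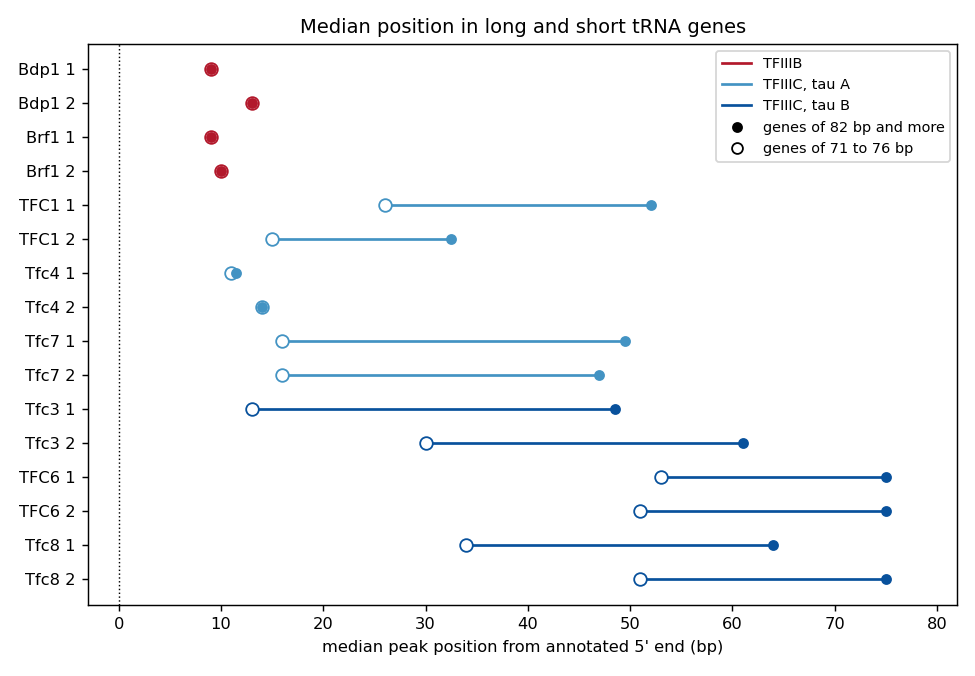
Median peak position from the annotated 5′ end in bp for each library, with filled circles for tRNA genes of 82 bp and more and open circles for those of 71 to 76 bp. The circles coincide in the 4 TFIIIB libraries, at 9 to 13 bp, and lie 17.5 to 35.5 bp apart in the TFIIIC libraries other than those of Tfc4.

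In long genes many TFIIIC peaks lay near the 3′ end, where TFIIIB had none. In a zone 15 to 25 bp before the 3′ end, set after the offsets had been seen, TFIIIB had 0% of its peaks in each of 4 libraries. In genes of 82 bp and more that zone held 44.9% of TFC1 peaks, 0% of Tfc4 peaks, 44.1% of Tfc7 peaks, 55.8% of Tfc3 peaks, 91.3% of TFC6 peaks and 80.1% of Tfc8 peaks (means of 2 libraries). In genes of 71 to 76 bp it held 3.89% of TFC1 peaks, 0% of Tfc4 peaks, 2.95% of Tfc7 peaks, 0.998% of Tfc3 peaks, 85.4% of TFC6 peaks and 52.8% of Tfc8 peaks. TFC6 thus had most of its peaks there in both classes of gene.

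The Tfc8 mean joins unlike libraries. Its first library had 60.2% of peaks in that zone in long genes and 7.25% in short ones, a difference of the kind seen for TFC1, Tfc7 and Tfc3. Its second library had 100% in long genes and 98.4% in short ones. A zone 5 to 20 bp from the 5′ end still held 35.3% of TFC1 peaks, 36.04% of Tfc7 peaks and 27.01% of Tfc3 peaks in long genes, against 65.6%, 88.6% and 45.8% in short ones. For TFC1 in short genes that was 45.7% in the first library and 85.6% in the second. Some long genes had peaks at both ends in 1 library: the first Tfc7 library had 128 peaks at 83 long genes, 55 in the 5′ zone and 61 in the 3′ zone. The position of such a gene, a median over its peaks, can fall between them where there is no peak. With the highest-scoring peak of each gene in its place, the shift between the complexes was -23.9 bp (exact permutation p = 0.0357).

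RNA polymerase III subunits varied more between libraries than TFIIIB did. Among the 14 of their 16 lists with at least 100 tRNA genes, the median position ran from 9 to 41 bp with a median of 14 bp, and the shift with gene length from 0 to 33.5 bp with a median of 4.75 bp. With the 12 TAP-tagged lists alone the position ran from 9 to 24.75 bp, and the lists with an HA tag were added after those values had been seen. Both libraries of 1 polymerase subunit could differ: Rpc37 shifted by 1.5 bp in the first and 33.5 bp in the second. The shift of a single library is therefore not stable for every Pol III target, whereas it was 0 bp in all 4 TFIIIB libraries.

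Gene by gene, TFIIIB lay nearer the 5′ end almost everywhere. Of 270 tRNA genes with both TFIIIB targets and at least 4 TFIIIC targets, 269 had a negative difference, with a median of -21.5 bp, -44.5 bp in long genes and -19.1 bp in short ones. With limma across these genes, 72 passed a Benjamini-Hochberg adjusted p of 0.05 (26.7% of those tested), all with TFIIIB nearer the 5′ end, and 93 had an unadjusted p under 0.05. Of these 72, 69 were among the 83 long genes (83.1%) and 3 among the 187 short ones (1.60%). The limma SE was the same, 13.9 bp, at every gene named below with all 8 targets. At these genes a call thus followed the size of the difference and not a spread of the gene's own. The targets of the 2 complexes did not overlap at 242 genes (89.6%), again always with TFIIIB nearer the 5′ end. The count of 72 fell to 39 without the first TFC1 library and to 28 without all first libraries. Across the 270 genes the size of the difference rose with gene length (Pearson r = 0.857, Spearman rho = 0.607, a description, since the genes share libraries). For the position itself, r with length was 0.079 for Bdp1 and 0.13 for Brf1. It was 0.675 for TFC1, 0.501 for Tfc4 (over 171 genes), 0.783 for Tfc7, 0.723 for Tfc3, 0.85 for TFC6 and 0.877 for Tfc8. Tfc4 thus had the lowest r of the TFIIIC targets and a higher one than both TFIIIB targets, although its median barely shifted.

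**Figure D3:**
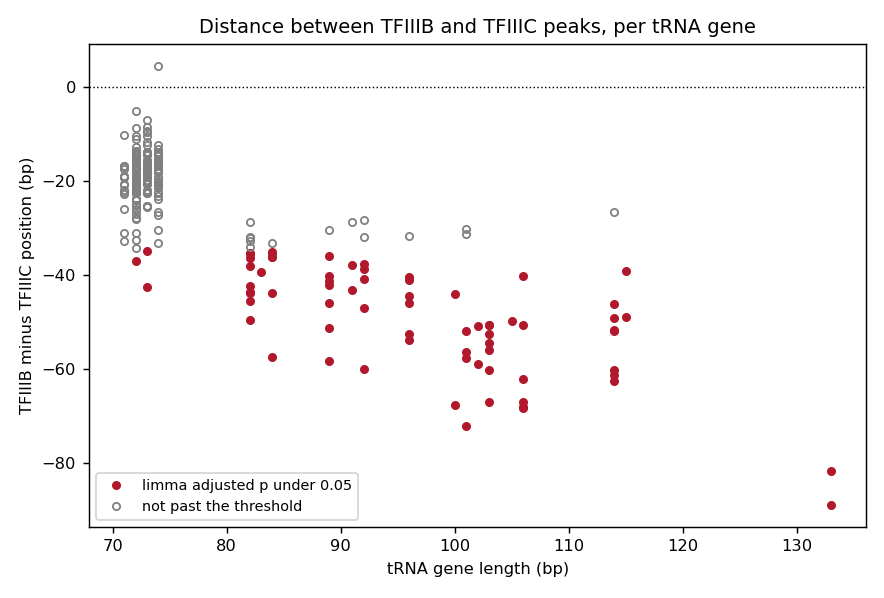
Mean TFIIIB position minus mean TFIIIC position in bp for each of 270 tRNA genes, against gene length in bp, with filled circles for genes past an adjusted p of 0.05 in limma. The 83 genes of 82 bp and more reach from -26.55 to -88.8 bp, and the only gene above 0 is a short one.

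Among the 170 genes with a value in all 8 targets, the 2 of 133 bp showed the widest separation. At YNCL0033C (chromosome XII, 605300 to 605432, sacCer3, 133 bp) TFIIIB positions, each a median over a library's peaks, were 15, 29.5, 15 and 10 bp. TFIIIC positions there were 108 to 115 bp in all but 1 of the 11 libraries with a peak, and the exception was Tfc4 at 75 bp. The difference was -88.8 bp (limma SE 13.9). YNCD0017W (chromosome IV, 884361 to 884493, 133 bp) had a difference of -81.6 bp, followed by YNCO0011W (-58.9 bp), YNCO0008W (-56.4 bp) and YNCL0001W (-55.9 bp). SUP61 (YNCC0013W), which had no Tfc4 peak and so falls outside that set, had -71.95 bp. The 5 smallest differences were at short genes: SUF5 (YNCO0020C, -8.88 bp), YNCH0003C (-8.50 bp), YNCO0002W (-7.08 bp), YNCG0011W (-5.29 bp) and YNCB0011C (4.38 bp), none past the threshold (adjusted p 0.531 to 0.753, limma). At YNCB0011C (chromosome II, 326792 to 326865) the position in the first TFC1 library was -119.5 bp, against 15 bp in its second. That value is a median over several peaks, and as peaks are single bases none lies at it. It gave a TFC1 mean of -52.25 bp, which enters the difference of 4.38 bp.

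Tfc4 overlapped with TFIIIB in position and covered fewer genes than any other subunit. It had a peak at 171 tRNA genes in either library and at 45 in both. Long genes made up 25.1% of the genes with a Tfc4 peak and 38.5% of the 104 without one. Its median score was 155 and 356, against 383.5 to 1000 in the other TFIIIC libraries. The part of list size in these differences was not tested.

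At the other genes of RNA polymerase III, the median TFIIIB position was again upstream of that of TFIIIC. At SNR6, the U6 snRNA gene whose B box lies downstream of the gene, TFIIIB peaks had a median of 21 bp in 4 libraries and TFIIIC peaks a median of 236 bp in 10 libraries. The 10 libraries all had a peak 206 to 241 bp from the 5′ end, and 5 had a second one inside the gene. At RPR1, the RNase P RNA gene, whose promoter elements lie in a transcribed leader, the medians were -61.5 bp for TFIIIB and -26 bp for TFIIIC, both upstream of the mature RNA. At SNR52, a snoRNA gene of the same kind, they were -136.5 bp for TFIIIB and -35 bp for TFIIIC, and 5 TFIIIC libraries had a further peak at -130 bp or upstream of it. ZOD1, a known place of TFIIIB and TFIIIC binding, had peaks in all 16 libraries with medians of 20 and 25.5 bp. There TFC6 and the second Tfc8 library lay at 65 to 68 bp, and the first Tfc8 library had peaks at 66, 20 and 10 bp.

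**Figure D4:**
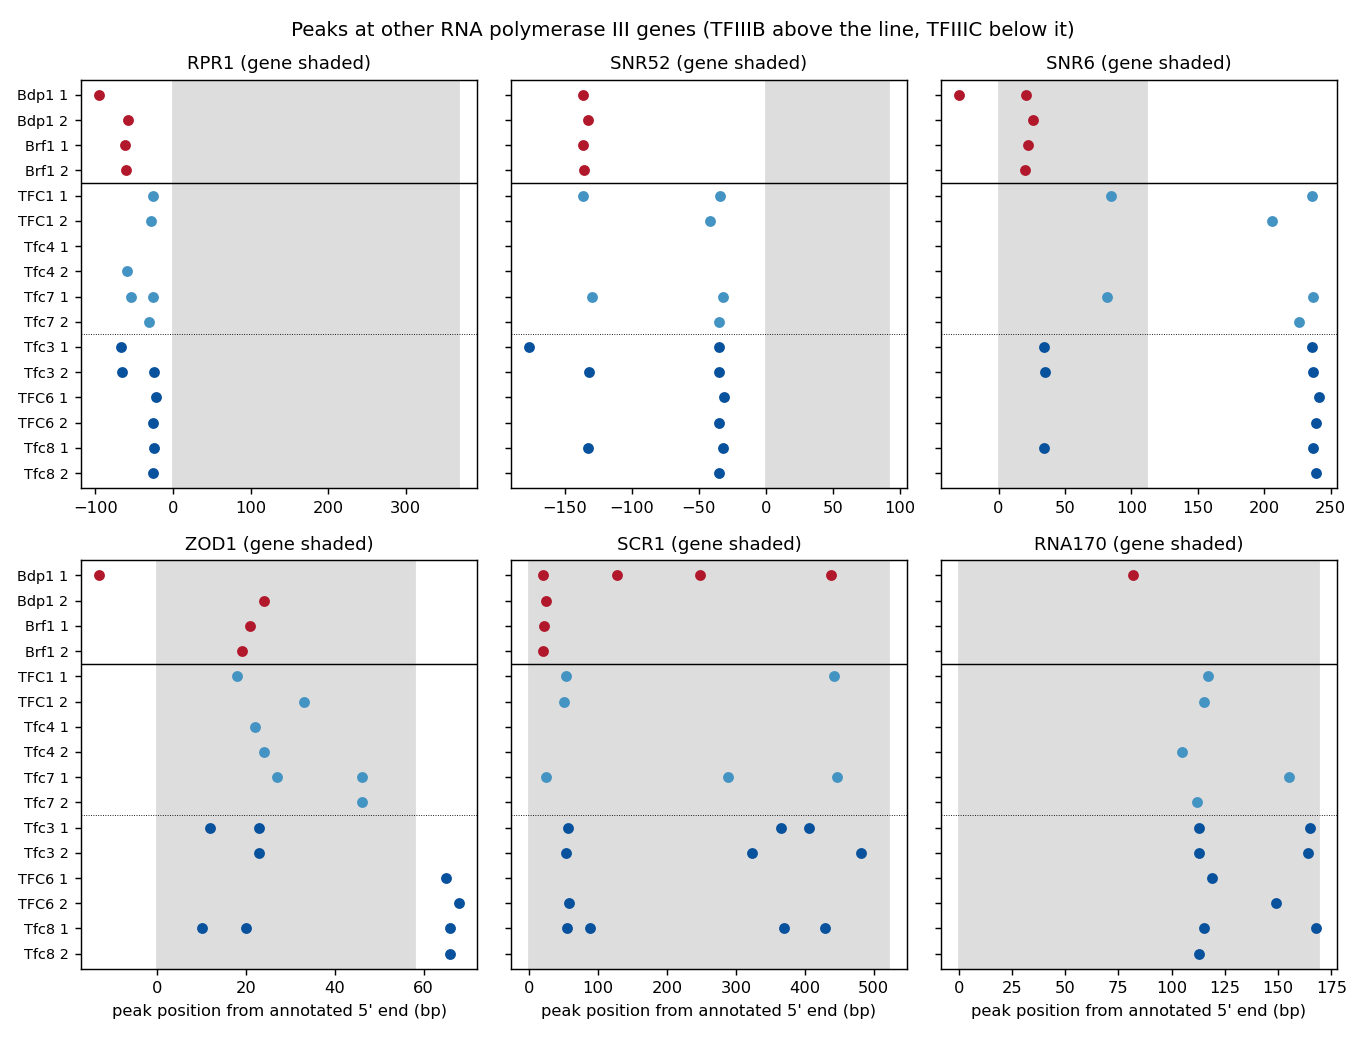
Position of every peak from the annotated 5′ end in bp at 6 other RNA polymerase III genes, in each of the 16 libraries with TFIIIB above the line and TFIIIC below it, and the gene shaded. At SNR6 all TFIIIB peaks lie at or before 26 bp, while 10 TFIIIC libraries have a peak at 206 to 241 bp.

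SCR1, the RNA of the signal recognition particle, had TFIIIB peaks at 20 to 25 bp in all 4 libraries, and 3 more from the first Bdp1 library further inside. TFIIIC had peaks in 7 libraries, of which the first lay at 25 to 58 bp. RNA170 had 1 TFIIIB peak, at 82 bp in the first Bdp1 library with a score of 329, and TFIIIC peaks in 11 libraries with a median of 116 bp. RDN5-3 to RDN5-6, the 5S rRNA genes, had TFIIIB medians of 23 to 24 bp and TFIIIC medians of 58 to 76 bp, but peaks at these places also occurred in 436 to 520 of the other lists. A place with no annotated gene, on chromosome VII from 555219 to 555335, 252 bp upstream of TIM21, had peaks of all 16 libraries and of 12 polymerase III lists. TFIIIB peaks there lay at 555219 to 555253 and TFIIIC peaks at 555254 to 555335.

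Peaks of the 16 libraries joined within 100 bp gave 381 places, of which 279 were at tRNA genes, 272 with both complexes. Of the 102 elsewhere, 31 had both. TFIIIB had 4 libraries and TFIIIC 12, so the chances of being seen alone differ between them. In an exact permutation test over libraries 0 places (0%) passed an adjusted p of 0.05, and the smallest adjusted p was 0.285. At an unadjusted p under 0.05 there were 17, 9 with TFIIIB more often and 8 with TFIIIC. Libraries of 1 target are not independent, so these p-values are too small. The smallest unadjusted p was 0.00275, and 10 TFIIIC libraries with no TFIIIB library gave 0.00824. With 4 libraries against 12 and 381 places few patterns could pass, so the 0 does not show that no place differs.

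TFIIIB-only places, with both TFIIIB targets and no TFIIIC library, numbered 12 (3.15% of all places). All 12 had the first Bdp1 and first Brf1 libraries, 4 had the second Brf1 library and 0 the second Bdp1 library. Without the first Bdp1 library the count was 0, and without the first Brf1 library it was 4. With the second libraries alone it was 1, and with the first alone 12. Of these places 9 lay 260 to 290 bp from a tRNA gene on its upstream side, at YNCI0005W, YNCE0014W, YNCE0021C, YNCG0032W, YNCH0006C, YNCL0007W, YNCN0009W, YNCP0022W and YNCP0024C. The other 3 were near YDR098C-B, MRX10 and YER160C, and 11 of the 12 had a peak of a polymerase III list. A further place near MRX10 (chromosome IV, 1023164 to 1023204) had peaks of all 4 TFIIIB libraries. It is not counted because the first Tfc3 library also had a peak there, with a score of 146. YIL082W-A, YDR098C-B and YER160C are Ty element genes, which have near-identical copies in the genome, so peaks beside them are uncertain in which copy they belong to.

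A zone was drawn around that distance, so its median is largely set by the window. Between 330 and 260 bp upstream of a tRNA gene TFIIIB had 38 peaks at 17 genes in 3 libraries, 9 of them the genes named above, and TFIIIC had 10 at 5 genes in 5 libraries. All 5 of those genes also had a TFIIIB peak there, so the zone is not free of TFIIIC. Nearer the gene, 40 to 10 bp upstream, TFIIIB had 45 peaks at 38 genes in 2 libraries and TFIIIC had 33 at 20 genes in 6 libraries. The zones were chosen after the positions had been seen.

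**Figure D5:**
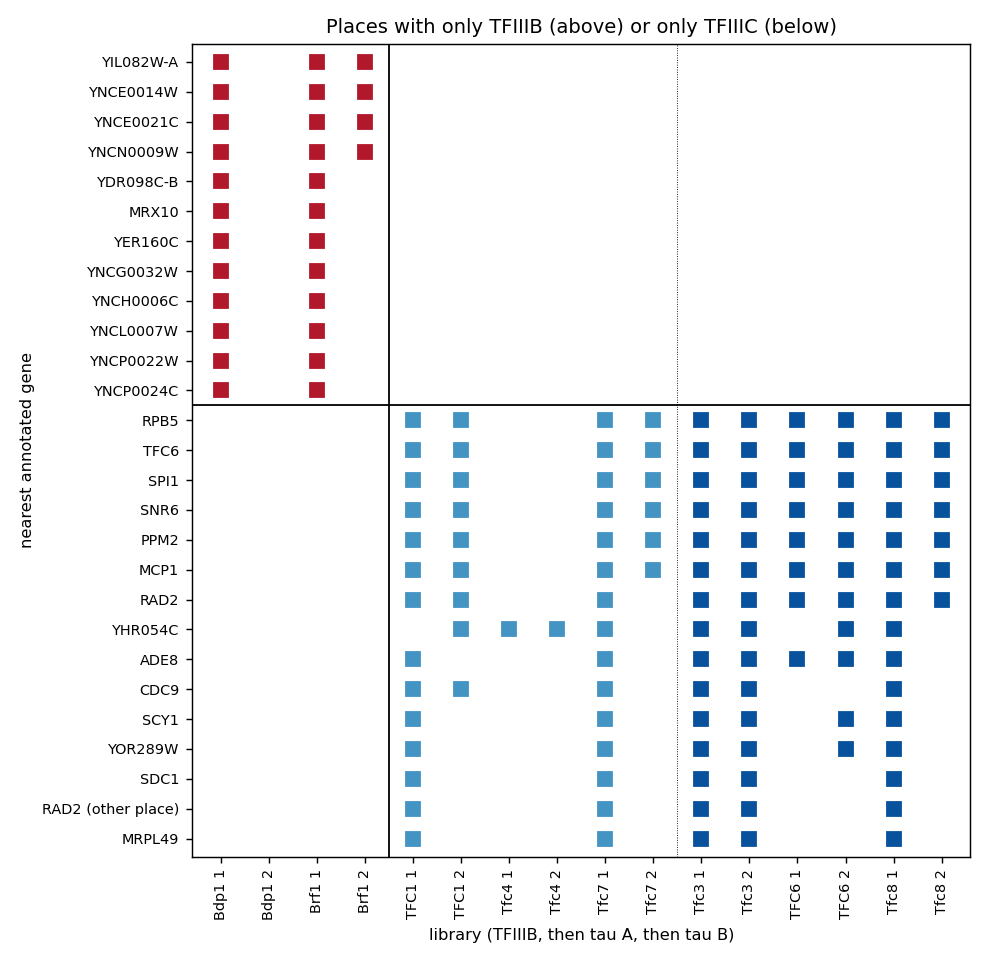
Presence of a peak (filled square) in each of the 16 libraries, with TFIIIB left of the line, at the 12 TFIIIB-only places (above) and the 15 TFIIIC-only places with the most libraries (below), named by the nearest annotated gene. The second Bdp1 library has none of the 12, and Tfc4 has 1 of the 15, the YHR054C place.

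A place was called TFIIIC only where at least 2 TFIIIC targets and no TFIIIB library had a peak. There were 24 (6.3% of all places), and 8 of these also had peaks in 10% or more of the other lists, near TEF1, TEF2, CCW12, YPT7 and the CUP1 region, which leaves 16. With 2 TFIIIC targets at a time in place of 6, the median count was 11 over 15 pairs, and without all first libraries the count was 15.

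The 6 most frequent TFIIIC-only places had a peak in all 10 libraries other than those of Tfc4. RPB5, whose product is a subunit shared by the nuclear RNA polymerases, had one 218 bp upstream (chromosome II, 549227 to 549280), with scores of 115 to 1000. TFC6 itself had one 157 bp upstream of its start (chromosome IV, 1198854 to 1198906), a known site of TFIIIC without TFIIIB. SPI1, a cell wall protein gene, had one 355 bp upstream (chromosome V, 467959 to 468015). Another was downstream of SNR6 by 95 bp (the place described above), starting at 366441 on chromosome XII. A separate place at the same gene (366205 to 366320) held peaks of all 4 TFIIIB libraries and of some TFIIIC libraries. The SNR6 place thus counts as TFIIIC only through the join distance, and SNR6 itself had both complexes. The others were inside PPM2 (chromosome XV, 58488 to 58548), and 286 bp upstream of MCP1 (chromosome XV, 768063 to 768122). RAD2, a DNA repair nuclease gene, had 9 libraries 124 bp upstream and 5 at a second place 370 bp upstream.

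Places with fewer libraries followed, with 7 near ADE8, 6 each at CDC9, SCY1 and YOR289W, and 5 each at SDC1 and MRPL49. The place inside YHR054C had 8 libraries, Tfc4 among them, and peaks in 487 other lists. None of the 16 places that were not recurrent in other lists had a Tfc4 peak, 10 had one of TFC6 and 2 had one of a polymerase III list. Peaks of the first TFC1 and Tfc7 libraries were at 16 of 16. The other lists with a peak at them numbered 0 to 16 of 1099 each, with a median of 3.5.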

How the data were processed

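Per the submitters' processing notes, BWA, Picard and SAMtools were used with the sacCer3 build; no versions are given. Each file the authors deposited is the peak list of 1 library, with 1 bp positions named ChExMix in the file. The deposited score runs to 1000, is not defined in the sources used here, and was used only to rank peaks. ChExMix places peaks by patterns learned from each library, and the options used are not given in the sources used here. No input control or read depth was used here.

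Positions were made 1-based. tRNA genes came from RefSeq's R64 annotation, with the strand read from the suffix of the locus tag (W or C). A peak within 250 bp of a tRNA gene was assigned to it, and a gene's position was the median of its peaks. Targets, each the mean of 2 libraries, were compared by exact permutation tests, genes by limma 3.58.1 in R 4.3.3 (at least 4 TFIIIC targets) with Benjamini-Hochberg adjustment, and places (peaks joined within 100 bp) by exact permutation over libraries. Python 3.11.15, pandas 2.3.3, numpy 2.4.6 and scipy 1.17.1 were used. The limma step was run on simulated positions with less spread between TFIIIC targets than in these data. That run checked the code and says nothing on error rates here.

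The members, lists and tests were chosen with earlier results of these data known. Named were the 15 TFIIIC-only places with the most libraries, every TFIIIB-only place, the 5 largest and 5 smallest tRNA gene differences among genes with all 8 targets, and the other polymerase III genes; ZOD1 and the place near TIM21 were added with their values in view. The alternatives varied distances, peak choice, gene sets, test units and libraries. The labels give no shared batch for a replicate number. Per-gene positions of same-numbered libraries deviated together, with r above 0.1, in 8 of 28 target pairs, so replicate numbers were not taken as pairs, although peak numbers did differ between first and second libraries in the same direction in 7 of 8 targets.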

Additional observations from a re-analysis of the deposited data

Results flagged for a closer look

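The shift of position between long and short tRNA genes differed between the complexes by -22.917 bp, TFIIIB minus TFIIIC (exact permutation test over targets, two-sided, p = 0.0357). Among 6 TFIIIC targets, Tfc4 stood far from the others in 2 measures: a shift of 0.25 bp, and 39.273% of tRNA genes with a peak. Among 4 TFIIIB libraries, the first of Bdp1 stood apart in the interquartile range of positions, 1.0 bp against 0 bp in the others. In all 10 groups of values were examined for a sample far from the rest, and chance flags about 1 group in 20.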

How the results depend on the processing

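The position difference kept its sign in all 38 alternatives and the tau A against tau B difference in all 31. With the library as the unit, the position difference had p = 0.0203 and with a replicate block p = 0.0242 (both -19.6 bp), and the tau difference p = 0.00433 and 0.01 (both -25.7 bp, exact permutation tests). Libraries of 1 target are not independent, so these p-values are too small. A one-sided test over targets, added after seeing the data, gave p = 0.0357 for the same -19.6 bp. For the interquartile range the library unit gave p = 0.0154 and the block p = 0.0179 (both -17.0 bp, exact permutation). Leaving out a replicate, library or target, the position difference ran from -23.05 to -14.95 bp and the tau difference from -31.75 to -20.5 bp. The interquartile range then ran from -20.6 to -13.4 bp and the share of peaks from 0.313 to 3.94 percentage points. The difference in tRNA genes covered ran from -0.145 to 13.7 percentage points, and the reversal to -0.145 came without Tfc4. For the length shift only 3 such cases were computed: without the first libraries, without the second libraries and without Tfc4. It ran from -27.45 to -21.25 bp, and single libraries or other targets were not left out. The 72 tRNA genes past limma's threshold became 147 by library, 130 with a replicate block, 30 with only genes measured in all 8 targets and 242 by no overlap, and 28 to 80 when leaving out libraries. TFIIIB-only places went from 12 to 4 where both libraries of a target were required, 19 against pairs of TFIIIC targets, 3 without places within 500 bp of a tRNA gene, and 0 to 17 when leaving out libraries. TFIIIC-only places went from 24 to 47 with a join of 50 bp, 61 with 1 target enough, 11 with the higher-scoring peaks of each library, and 11 for pairs of targets, and 15 to 29 when leaving out libraries. Under the replicate block 0 places passed the exact test for either complex (25 at an unadjusted p under 0.05). Positions are those of a peak caller that learns patterns per library, and its part in the fixed offsets was not tested. Read depth is unknown, so the absence of a peak does not show absence of binding.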
